A study of Mus musculus with 6 samples.

Results

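Splicing factors and heterogeneous nuclear ribonucleoproteins (hnRNPs) were described in subcutaneous tumours that overexpress a microRNA, miR-155, from an allele that responds to doxycycline. They were found by their identifiers in the authors' deposited table, as the entries whose symbol starts with Snrp, Lsm, Sf3a, Sf3b, U2af, Prpf, Sfrs, Srsf, Hnrp or Hnrnp, with a digit required after Lsm, Prpf, Sfrs and Srsf. The rule took 88 of 29209 entries, and 87 of them have an adjusted p. The entry without one is Snrpn, an imprinted gene that encodes a close relative of the Sm protein of Snrpb.

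The tumours came in 2 groups. In 3 samples the NCr nude mice had eaten chow with 2.3 mg per kg of doxycycline (DOX) during the last 16 hours, and in 3 samples they had received no DOX. All 6 tumours grew from spleen cells of diseased mice carrying the allele named mir-155LSLtTA, in which DOX lowers expression of the microRNA. The Cre driver, the age of the mice and whether each sample is a different animal are not given in the sources used here. The p-values therefore describe the variation among these 6 samples, part or all of which may be technical. Nude mice lack a thymus but keep their own B cells, myeloid cells and stroma, and these can be part of a dispersed tumour. No tumour without the allele received DOX, so effects of DOX itself and of miR-155 withdrawal cannot be told apart. The level of miR-155 is not analysed here.

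The spliceosome removes introns from pre-mRNA. Its U1, U2, U4 and U5 particles are each built on a ring of Sm proteins, while the U6 particle carries a ring of Lsm proteins. SF3A and SF3B belong to the U2 particle that binds the branch point, U2AF recognises the 3' splice site, and many PRPF proteins belong to the U4/U6.U5 tri-snRNP. SR proteins and hnRNPs are RNA-binding regulators, which often act in opposite ways on the choice of exons. Dividing cells need large amounts of the core particles, and several of their genes are known targets of the transcription factor MYC.

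Each of the 18543 tested entries of the authors' deposited table has 1 fold and its p-values, and the other 10666 entries have none. No value per sample is given, so levels, their spread and the depth of each sample are unknown here and no test across samples could be run. A fold above 1 is taken to mean higher in DOX tumours. The table does not say which group was divided by which, and every direction turns if it was the other way round. "Rose" and "fell" are used of genes with the authors' adjusted p under 0.05, and other genes are given by their values. Of all 18543 tested entries 5.72% rose and 5.61% fell. Fewer cells of a type and less RNA per cell cannot be told apart in these bulk samples.

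Sequences that bear on the microRNA are shown first, since DOX acts on it. RefSeq (GRCm38.p6) gives the mature miR-155-5p at chr16:84714143-84714165 on the plus strand, and its seed, bases 2 to 8, is in capitals.
mmu-miR-155-5p: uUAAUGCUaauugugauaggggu
The letters complementary to this seed are AGCATTA. Also searched was GCATTAA, which is complementary to bases 2 to 7 only and has an A opposite base 1. Both can overlap in 1 place. Searched on the transcribed strand only, 1 or both stand in the longest annotated 3' UTR (GENCODE M21) of 13 of 86 tested members with an annotation, or 15.1%, beside 13.6% of 14757 tested protein-coding entries. Of these 13, only Prpf39 rose and only Prpf19 and Snrpb fell, while among all 2012 tested protein-coding entries with a match 196 rose and 81 fell. With or without a match, 773 of 15013 tested entries matched to protein-coding genes rose (5.15%) and 1011 fell (6.73%). Across 13019 tested protein-coding entries Spearman's rho between the log2 fold and the 3' UTR length was 0.20. The part of that length in the counts was not tested. The matches of Prpf39, Prpf19 and Snrpb are shown with the 7 letters in capitals. A match of Sf3b1 is shown with them. It holds 2 separate places, as do Hnrnpu and Hnrpa3, which are not shown.
Prpf39: ttttttttttttGCATTAAttggtctag
Prpf19: aaaaggccttttGCATTAAatgtgcctg
Snrpb: tcttcacacAGCATTAtgtcagtag
Sf3b1: ttatgaagaacaAGCATTAaggggctat
A match is a description of letters and does not show that the microRNA binds there. The other members with a match are Hnrnpa2b1, Hnrnpr with its further entry Hnrpr, Hnrnpu, Hnrpa3, Hnrpdl, Lsm11, Sfrs1 and Sfrs17b, with an adjusted p by the authors' deposited table between 0.167 for Hnrnpu and 1 for Hnrpr. The SR and hnRNP class held the most members with a match, 8 of 36 (22.2%). Hnrnpr and Hnrpr, entries of 1 gene with the same match, are both counted in these 8 and in the 13. The other classes had 3 of 25 (12%) for SF3, U2AF and PRPF and 2 of 25 (8%) for snRNP and Lsm proteins. The median length of the 3' UTR was 1304.5 bases for SR and hnRNP, 622 for SF3, U2AF and PRPF and 435 for snRNP and Lsm entries.

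Of the 87 tested members, 27 fell and 3 rose. That is 31.0% and 3.45% of them, beside 5.61% lower and 5.72% higher among all 18543 tested entries. The median log2 fold of the members was -0.62, computed from the authors' deposited table, while that of all tested entries with a finite fold was 0.17. All 87 have a finite fold, and 66 of them lie below 1. The members that rose were Prpf39, Prpf4b and Hnrph1. All 30 called members changed at least 2-fold.

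**Figure D1:**
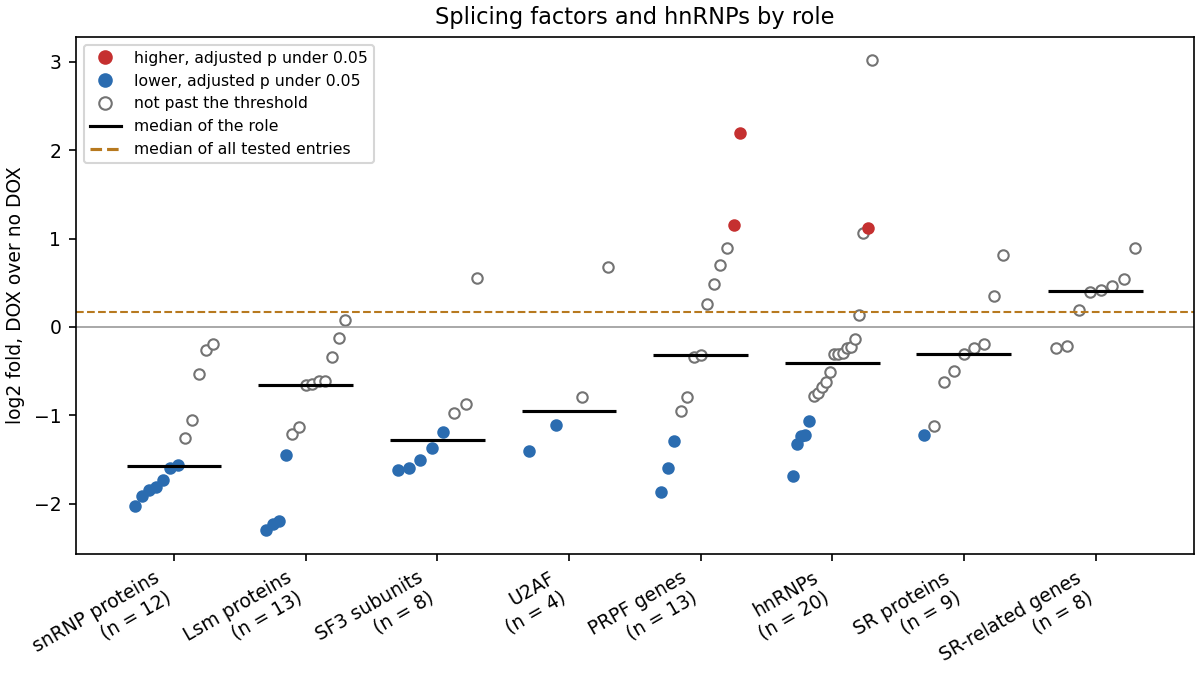
Each point is 1 tested entry, placed by its role on the horizontal axis and by the log2 fold of DOX over no DOX from the authors' deposited table on the vertical axis; filled points have an adjusted p under 0.05, black bars are medians of a role and the dashed line is the median of all tested entries (0.17). All 12 snRNP proteins lie below 0 and have the lowest median (-1.58), while the 8 SR-related genes have the only median above 0 (0.41).

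The core snRNP and Lsm class fell the most often, 11 of 25 against 10 of 25 for SF3, U2AF and PRPF genes. When all entries are counted the core class also had the lowest median. Of its 25 tested entries, 11 fell (44%) and 0 rose, beside 5.61% and 5.72% of all tested entries. The class had a median log2 fold of -1.21, a fold of 0.431. At an unadjusted p under 0.05 in the authors' DESeq comparison, 14 were lower and 0 higher. In the SR and hnRNP class, 6 of 37 fell (16.2%) and 1 rose (2.70%), with a median of -0.24, a fold of 0.844. The genes of SF3, U2AF and PRPF lay between them in their median of -0.88, and 10 of 25 fell (40%) while 2 rose (8%). The classes are set side by side as counts, and the difference between them was not tested, since the table holds no samples over which to test it. The core class also contains the most genes with near-identical copies in the annotation, 12 of 26, against 10 of 36 SR and hnRNP entries that were searched and 5 of 25 of the others. Without members that have such a copy, 6 of 14 core entries fell and their median was -0.63, while the SR and hnRNP median was again -0.24, with 4 of 27 lower and 1 higher. The SF3, U2AF and PRPF genes, 8 of 20 lower and 2 higher, then had the lowest median of the classes, -0.83, and no longer lay between the others.

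**Figure D2:**
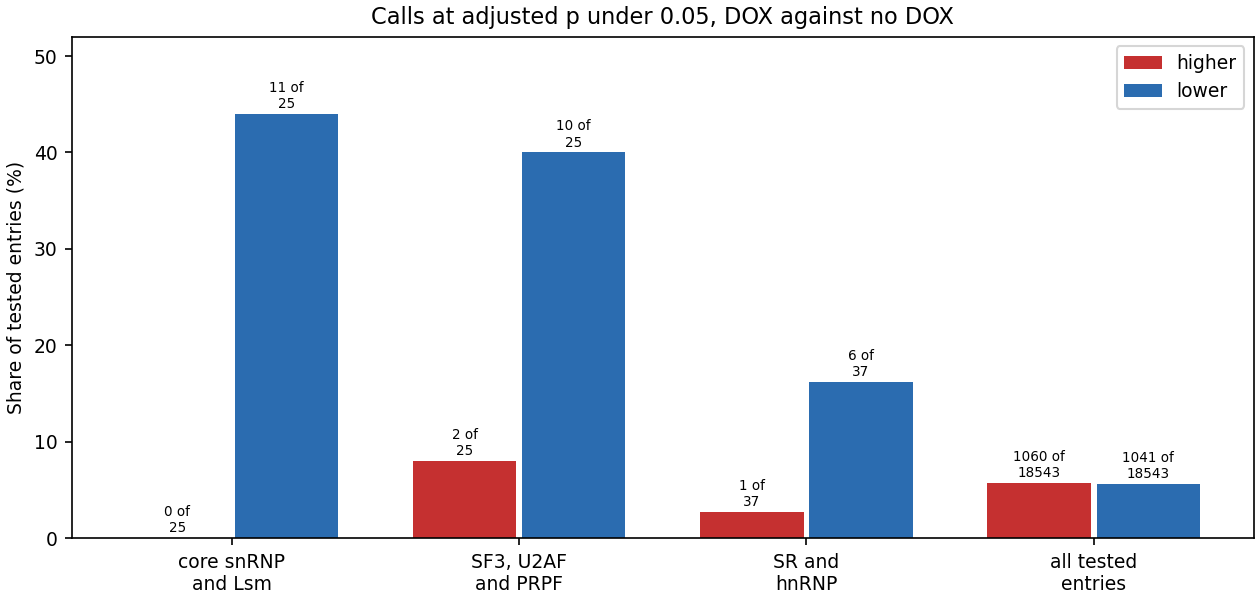
Bars give the share of tested entries in percent that were higher or lower in DOX tumours at the authors' adjusted p under 0.05, with the counts above them, for 3 classes of splicing genes and for all tested entries. Falls reach 44% in the core snRNP and Lsm class and 16.2% in the SR and hnRNP class, beside 5.61% of all tested entries.

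Sm proteins form the ring around each spliceosomal RNA except U6. In the authors' deposited table Snrpd3 had a log2 fold of -2.03 (adjusted p = 0.00253), Snrpd1 one of -1.92 (0.000664), Snrpb one of -1.73 (0.000432) and Snrpd2 one of -1.56 (0.00673), so 4 of the 7 Sm ring genes fell. That is 57.1% of them, beside 5.61% lower among all tested entries. The other ring genes did not pass. Snrpf had -1.25 (adjusted p = 0.0641), Snrpg -1.05 (0.238) and Snrpe -0.26 (0.778) in the authors' deposited table. All 7 folds were below 1, but that of Snrpe, at 0.835, was far closer to 1 than the folds of the SmD genes, which lay between 0.244 and 0.339. Snrpd1, Snrpd2, Snrpe, Snrpf and Snrpg each have at least 1 pseudogene copy of at least 95% identity in the annotation, so the division of their reads is uncertain, whereas none was found for Snrpb and Snrpd3.

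Of the proteins particular to U1, 2 of 3 genes fell, and of those particular to U2, 1 of 2, beside 5.61% of all tested entries. Snrpa, whose protein binds a stem-loop of U1 RNA, had a log2 fold of -1.84 (adjusted p = 0.000319) in the table the authors deposited. Snrpc, whose protein helps U1 hold the 5' splice site, had -1.59 (0.0101) there. Both have pseudogene copies. The third U1 gene, Snrp70, now Snrnp70, did not pass, at -0.19 (adjusted p = 0.976) in the table the authors deposited. Of the U2 proteins, Snrpa1 fell, at -1.81 (0.00924), while its partner Snrpb2 had -0.53 (0.670) in the same deposited table. Snrpa1 and Snrpb2 proteins bind U2 RNA together, and the U1 and U2 genes that did not pass had folds of 0.877 and 0.690.

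Among Lsm genes, 4 of 13 tested entries fell (30.8%) and 0 rose, beside 5.61% and 5.72% of all tested entries. These 4 belong to the ring of U6. At an unadjusted p under 0.05 by the authors' DESeq, 6 of the 13 were lower and 0 higher, 5 of them in that ring. Lsm2, Lsm7 and Lsm4 had the lowest log2 folds of all 87 members, at -2.30 (adjusted p = 0.00434), -2.24 (0.00632) and -2.20 (0.000238) in the authors' deposited table. Lsm3 followed at -1.45 (0.0353), which makes 4 of the 7 genes of the Lsm2 to Lsm8 ring. Lsm6 had -1.13 (0.0995), Lsm5 -0.66 (0.557) and Lsm8 -0.65 (0.641) in the authors' deposited table. Lsm5, Lsm6 and Lsm7 have pseudogene copies, and so does Lsm12 outside the ring. Lsm8 is the subunit that marks the nuclear ring, whereas Lsm1 takes its place in the cytoplasmic ring that acts in mRNA decay. Lsm1 was the 1 core gene with a fold above 1, at a log2 fold of 0.07 (adjusted p = 1) in the table the authors deposited. Lsm10 (-0.61, 0.957) and Lsm11 (-0.61, 0.721), which belong to the U7 particle of histone mRNA processing, did not pass in that deposited table. The same holds for Lsm12 (-1.21, 0.0594), Lsm14a (-0.13, 1) and Lsm14b (-0.34, 0.872). Lsm12 was the core gene nearest to the threshold without passing, and Lsm3 the last to pass. A further entry of the gene Lsm2, listed as SmX5, had -1.45 but an unadjusted p of 0.805 in the authors' deposited table.

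**Figure D3:**
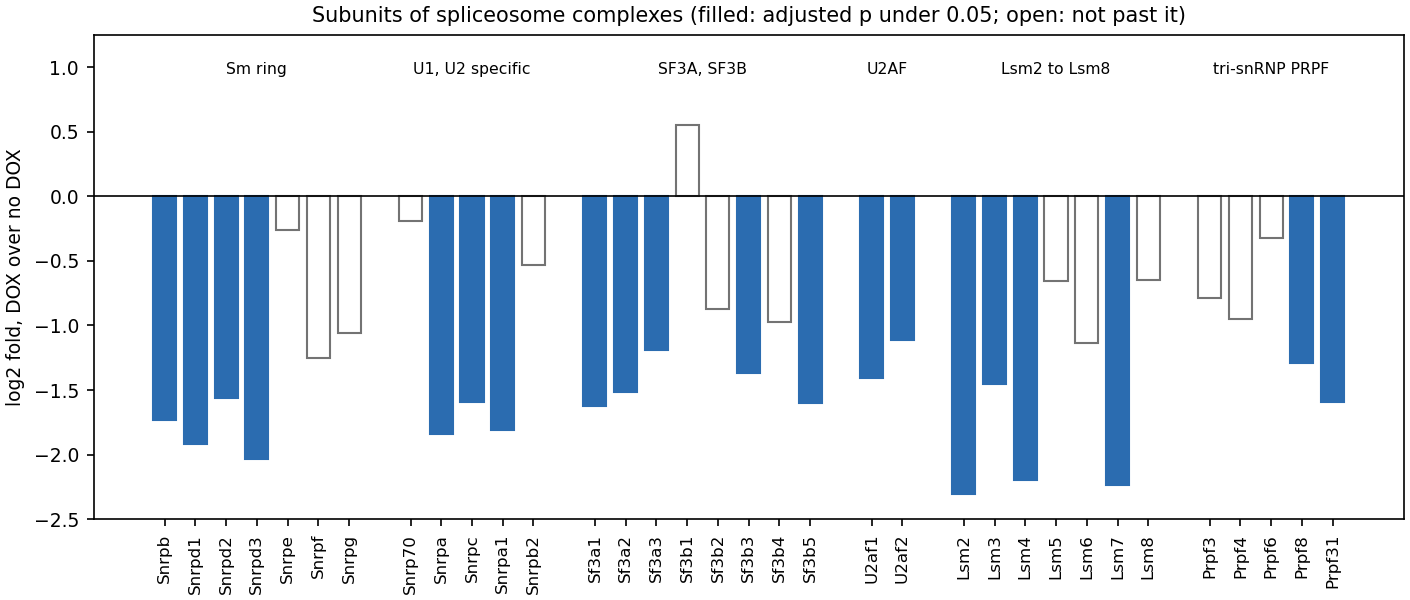
Bars give the log2 fold of DOX over no DOX from the authors' deposited table for each subunit, grouped by complex; filled bars have an adjusted p under 0.05 and open bars do not. Sf3b1 (0.56) is the only bar above 0 among these 34 genes, and each complex shown holds at least 1 filled bar.

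The U2 particle's SF3A complex fell as a whole. Sf3a1 had a log2 fold of -1.62 (adjusted p = 0.000242), Sf3a2 one of -1.51 (0.00402) and Sf3a3 one of -1.19 (0.04995, just under the threshold) in the authors' deposited table. In SF3B, Sf3b5 (-1.60, 0.0200) and Sf3b3 (-1.37, 0.00286) fell. Sf3b2 and Sf3b4 had -0.88 (0.0956) and -0.98 (0.1001) in the authors' deposited table and did not pass. Sf3b1, the large scaffold subunit that clamps the branch point helix and is mutated in blood cancers, had 0.56 (0.307) there, so the scaffold and its partners had folds on opposite sides of 1, at 1.47 for Sf3b1 and between 0.330 and 0.545 for the other 4. Whether Sf3b1 differs from them was not tested. Sf3b4 has 1 pseudogene copy in the annotation. A further SF3B gene, Sf3b6, stands in the table under the clone name 0610009D07Rik and had -1.06 (0.108) in the authors' deposited table.

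Both subunits of the 3' splice site factor fell. U2af1, which reads the AG at the intron's end, had a log2 fold of -1.40 (adjusted p = 0.0104) and U2af2, which binds the polypyrimidine tract, one of -1.11 (0.0307) in the authors' deposited table. Each has at least 1 pseudogene copy in the annotation. The related gene U2af1l4 has a pair of entries that go apart, at 0.67 (0.655) under this name and -0.80 (0.880) as U2af26 in the authors' deposited table, and neither passed.

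PRPF genes were the most divided. Prpf19, the ubiquitin ligase at the heart of the complex that activates the spliceosome, had a log2 fold of -1.87 (adjusted p = 0.00238) in the table the authors deposited. Prpf31, which binds U4 RNA in the tri-snRNP, had -1.59 (0.00325) and Prpf8, the scaffold of the catalytic centre, -1.29 (0.00576) in the authors' deposited table. The other tri-snRNP genes were Prpf4 (-0.95, 0.183), Prpf3 (-0.79, 0.290) and Prpf6 (-0.32, 0.799), none past the threshold. Prpf39 rose the most of all called members, with a fold of 4.57, a log2 fold of 2.19 (7.44e-05) in the table the authors deposited. It encodes a protein associated with the U1 particle. Another U1-associated gene, Prpf40b, had 0.70 (0.871) in that table, and a further entry of it, listed as Hypc, had 2.11 (0.433). Prpf4b, a protein kinase that phosphorylates tri-snRNP proteins, also rose, by 1.16 (0.0201) in the authors' deposited table. Prpf38b had 0.89 (0.0956), Prpf18 0.49 (0.635) and Prpf38a -0.34 (0.776) there. A further entry of Prpf38a, listed as 2410002M20Rik, had 0.67 with an unadjusted p of 0.781 by the authors' DESeq.

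hnRNPs coat nascent transcripts, and 5 of 20 tested entries fell (25%) while 1 rose (5%). Among all 18543 tested entries 5.61% fell and 5.72% rose. Hnrpab had a log2 fold of -1.69 (adjusted p = 0.000199) in the table the authors deposited, the lowest of the SR and hnRNP class. Hnrnpl, which binds CA repeats, had -1.32 (0.00330) and Hnrpf, which binds runs of G, had -1.23 (0.00759) in the authors' deposited table. Hnrpd, also called Auf1 and known for binding AU-rich elements in short-lived mRNAs, had -1.22 (0.0135) there. Hnrnpa1, a splicing silencer, had -1.07 (0.0121) in the authors' deposited table, with 8 pseudogene copies in the annotation that can share its reads, and Hnrpf has 5. Hnrph1 rose, at 1.12 (0.0320) in the authors' deposited table. It is a close relative of Hnrpf, and these 2 genes of one subfamily were called in opposite directions. Of the others in it, Hnrph3 had 1.07 (0.239) and Hnrph2, with 1 pseudogene copy, 0.14 (1). Hnrpll, known in lymphocytes for its control of Cd45 exons, had the largest fold of any member, 8.10, a log2 fold of 3.02, but did not pass (unadjusted p = 0.0170, adjusted 0.109) in the authors' deposited table.

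The remaining hnRNPs had log2 folds between -0.78 for Hnrpk (adjusted p = 0.168) and -0.14 for Hnrpa3 (0.955) in the authors' deposited table. They include the abundant Hnrnpu (-0.75, 0.167), Hnrnpc (-0.62, 0.321) and Hnrnpa2b1 (-0.30, 0.675). Hnrpdl had -0.51 (0.506), Hnrpul1 -0.31 (0.588), Hnrpul2 -0.31 (0.817) and Hnrnpr -0.24 (0.864), with -0.68 and an adjusted p of 1 for its further entry Hnrpr. Hnrpm had -0.23 (0.870) in the authors' deposited table, while an entry outside the rule that carries a synonym of the same gene, mKIAA4193, rose at 2.69 (0.00162). These entries of 1 gene thus gave different results, and reads cannot be assigned between them here. Hnrpa3 has 23 near-identical copies in the annotation, the most of any member, Hnrpk has 2, and Hnrnpc and Hnrnpr have 1 each. The division of their reads is uncertain too.

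SR proteins carry arginine-serine repeats and mostly promote exon inclusion. Sfrs2, now Srsf2 and also called SC35, was the 1 of 9 that fell (11.1%), and 0 rose, beside 5.61% and 5.72% of all tested entries. It had a log2 fold of -1.22 (adjusted p = 0.00546) in the table the authors deposited. Sfrs9 (Srsf9) was closest to it, at -1.13 (0.0584). Sfrs5 (Srsf5) had 0.81 (0.143) and Sfrs11 (Srsf11) 0.35 (0.597) in the authors' deposited table, the 2 folds above 1. Sfrs4 had -0.62 (0.323), Sfrs6 -0.50 (0.467), Sfrs1 -0.30 (0.734), Sfrs7 -0.24 (0.778) and Sfrs3 -0.19 (0.920). Near-identical copies in the annotation were found for Sfrs3, which has 4, and Sfrs5, which has 1. At an unadjusted p under 0.05, 2 SR genes were lower and 1 higher in the authors' comparison.

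The 8 SR-related genes stand under older Sfrs names and now mostly have others. None passed by the authors' DESeq comparison, and 0 had an unadjusted p under 0.05. Sfrs12 (Srek1) had a log2 fold of 0.89 (adjusted p = 0.231), Sfrs17b (Akap17b) 0.54 (0.679), Sfrs2ip (Scaf11) 0.46 (0.454) and Sfrs8 (Sfswap) 0.42 (0.611) in the authors' deposited table. Sfrs14 (Sugp2) had 0.40 (0.783), Sfrs16 (Clasrp) 0.19 (1) and Sfrs15 (Scaf4) -0.24 (0.899). Sfrs10, a name that RefSeq lists for both Tra2b and Srsf2, had -0.22 (0.826) in the authors' deposited table. Their median of 0.41 was the 1 role median above 0.

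Other splicing genes, outside the rule, were taken from 5 lists of the pathway, with the entry under the current symbol used where a gene has several. Of 132 tested genes in them 17 fell (12.9%) and 12 rose (9.09%), beside 5.61% lower and 5.72% higher among all 18543 tested entries. Genes that assemble Sm rings with the SMN and PRMT5 complexes had 4 of 16 lower (25%) and 0 higher, with a median log2 fold of -0.63. At an unadjusted p under 0.05, 5 were lower and 0 higher in the authors' comparison. Prmt5, which methylates Sm proteins, had -1.67 (adjusted p = 0.00219), its partner Clns1a -1.35 (0.0271), and Gemin4 and Gemin5 had -1.66 (0.0186) and -1.51 (0.0454) in the authors' deposited table. Smn1 itself had -1.03 (0.243).

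Of 50 other spliceosome subunits 5 fell (10%) and 1 rose (2%), with a median of -0.51. Among all tested entries 5.61% fell and 5.72% rose. Eftud2, the GTPase of the U5 particle, had a log2 fold of -1.69 (adjusted p = 0.000499), Snrnp40, listed as Wdr57, one of -1.66 (0.00204), and the cap-binding gene Ncbp1, listed as AU014645, one of -1.47 (0.00216) in the authors' deposited table. Ppil1 (-1.41, 0.00500) and Ppie (-1.42, 0.0332), both peptidyl-prolyl isomerases, fell as well. Snrnp48, a protein of the minor spliceosome listed as 6530403A03Rik, rose at 1.32 (0.0449) in the authors' deposited table. Of 14 genes of the exon junction complex and mRNA export 3 fell (21.4%) and 1 rose (7.14%). Alyref, listed as Thoc4 and an adaptor for mRNA export, had -2.01 (1.91e-05), Eif4a3, the helicase that anchors the junction complex, -1.58 (0.00219) and Rnps1 -1.51 (0.00207) in the authors' deposited table, while the export gene Thoc2 had 2.29 (1.98e-06).

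In the list of SR kinases and SR-related regulators, 6 of 21 tested genes rose (28.6%) and 0 fell, beside 5.72% and 5.61% of all tested entries. Of the 21, 15 did not pass and 7 had folds below 1. The median log2 fold was 0.68, and at an unadjusted p under 0.05, 8 were higher and 1 lower in the authors' comparison. Clk1 and Clk4, kinases that phosphorylate SR proteins in the nucleus, had folds of 5.47 (log2 2.45, adjusted p = 2.01e-08) and 4.10 (2.04, 7.06e-05) in the authors' deposited table. Luc7l3, listed as 3300001P08Rik and related to a U1 protein of yeast, had 1.86 (0.000204), Rbm5 1.502 (0.000596), Rbm39 1.502 (0.00131) and Rbm6 1.32 (0.0106) in the authors' deposited table. Clk2 (0.75, 0.310), Clk3 (0.53, 0.430), Srpk2 (0.68, 0.270) and Srpk1 (-0.92, 0.113) did not pass. Both Clk1 and Clk4 thus rose, while 1 of 9 genes of the SR proteins they phosphorylate was called, and it fell.

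Among 31 other RNA-binding regulators 5 fell (16.1%) and 4 rose (12.9%), with a median of -0.10. The shares of all tested entries were 5.61% and 5.72%. Of the polypyrimidine tract proteins 2 were called, in opposite directions, Ptbp1 at -1.52 (adjusted p = 0.000373) and Ptbp2 at 2.23 (0.000314) in the authors' deposited table. Ptbp3, listed as Rod1, had 0.40 (0.593) there and did not pass. Ptbp1 is known to repress Ptbp2 by exon skipping, and whether this bears on their folds was not tested. Pcbp1 (-1.42, 0.00238), Khsrp (-1.36, 0.00355) and Raly (-1.16, 0.0106) also fell, as did Raver1 (-1.17, 0.0167). Mbnl2 (1.65, 0.000663), Qk (1.28, 0.00968) and Tia1 (1.32, 0.0208), which bind introns near exons, rose in the authors' deposited table.

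**Figure D4:**
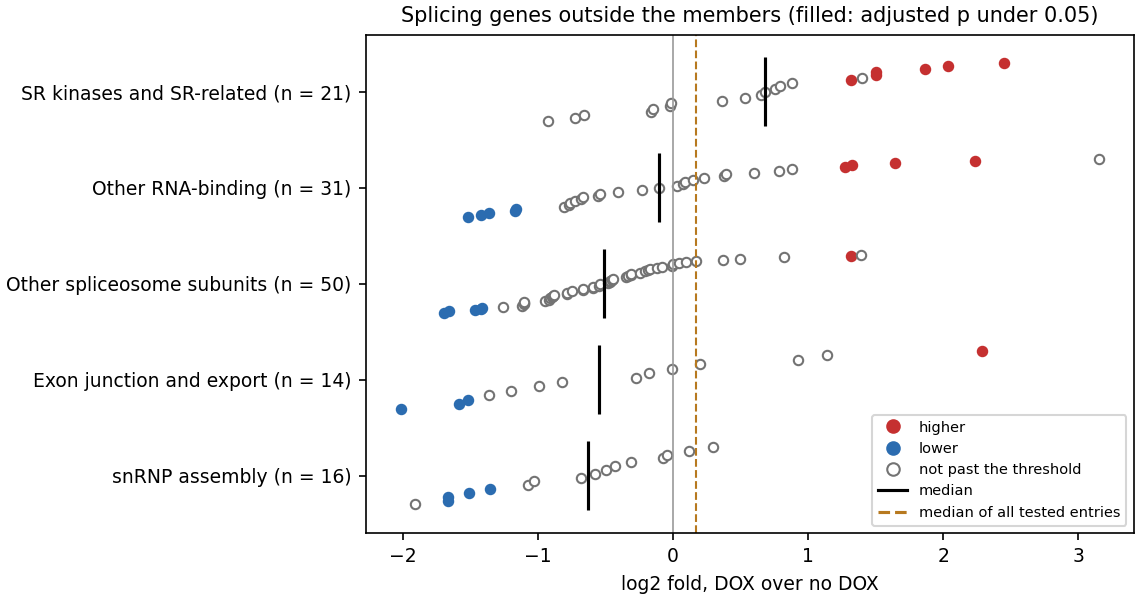
Each point is 1 tested gene outside the members, placed by its log2 fold of DOX over no DOX from the authors' deposited table on the horizontal axis and by its list on the vertical axis; filled points have an adjusted p under 0.05, black bars are medians and the dashed line is the median of all tested entries (0.17). The 6 called SR kinases and SR-related regulators lie right of 0 and the 4 called snRNP assembly genes left of it.

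Direction went with transcript length among the members as in the whole table. Across 86 members Spearman's rho between the log2 fold and the length of the longest annotated protein-coding transcript (GENCODE M21) was 0.36, and it was 0.28 across 13019 tested protein-coding entries, as a description, since genes are not independent and share the same libraries. With GC content rho was -0.37 and -0.24. Core snRNP and Lsm transcripts are short, with a median of 1161 bases, against 3111 bases for SR and hnRNP genes and 3222 for SF3, U2AF and PRPF genes. Of the 25 core entries 17 lie in the shortest of 4 equal length groups, up to 2031 bases, where 10 of them fell (58.8%) beside 10.9% of all 3694 tested protein-coding entries there. In that group 2 of 5 SR and hnRNP entries fell. In the longest group, from 4729 bases, 3 of 7 SF3, U2AF and PRPF entries fell (42.9%), namely Sf3a1, Prpf8 and Prpf19, beside 3.12% of all entries. Prpf4b rose, 1 of the 7 (14.3%), beside 11.1% of all entries there. Of 10 SR and hnRNP entries in that group 1 fell and 0 rose. Within the core class rho with length was 0.25, within SR and hnRNP genes 0.16, and within SF3, U2AF and PRPF genes 0.03. The part of transcript length and GC in the difference between the classes was not tested.

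**Figure D5:**
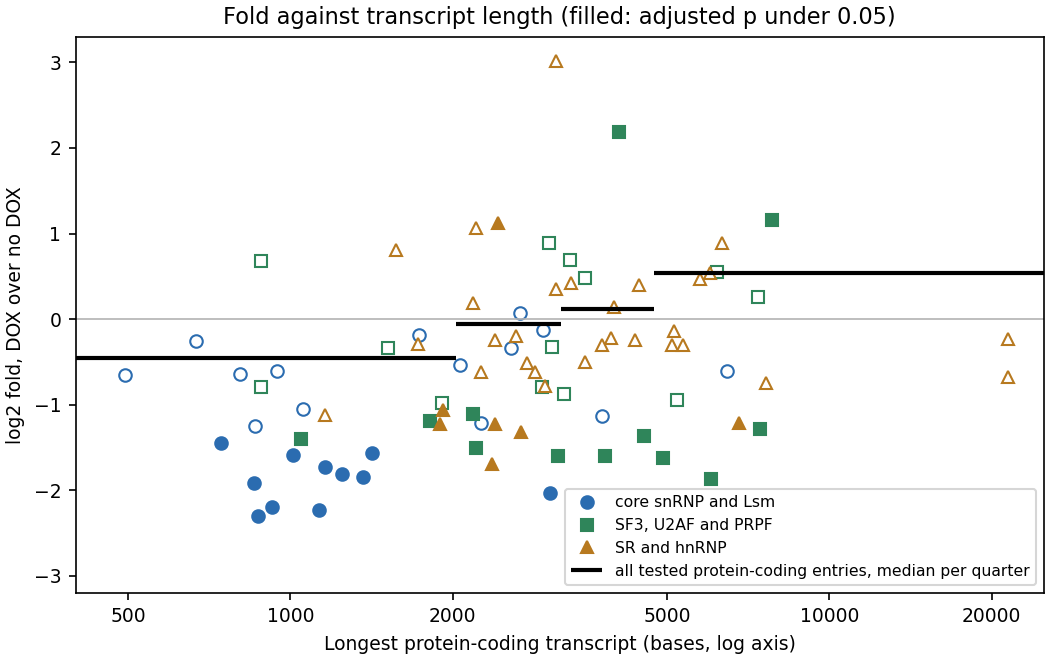
Each point is 1 member, placed by the length of its longest annotated protein-coding transcript in bases on a log axis and by its log2 fold of DOX over no DOX from the authors' deposited table; filled points have an adjusted p under 0.05, and black bars give the median of all tested protein-coding entries in each of 4 equal length groups. The core snRNP and Lsm genes gather at the short end, mostly below the bar of their length group (-0.46), and the called SF3, U2AF and PRPF genes are spread over all lengths.

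Promoters were searched for CACGTG, the hexamer that MYC and related factors bind, which reads the same on both strands. RefSeq windows from 250 bases before to 50 after the start were found for 74 tested members. In 10 of them (13.5%) at least 1 window holds the hexamer, beside 11.2% of 12072 tested entries counted in the same way. By class the 10 were 1 of 20 core snRNP and Lsm members, 6 of 34 SR and hnRNP members and 3 of 20 others. Of the members that fell 3 of 22 have it (13.6%), beside 13.3% of all tested entries with a window that fell. Of the 3 that rose 1 has it, beside 10.1% of all those that rose. Counted per single window, an unlike measure, the share was 7.15% of all 32851 windows. The window of Snrpa, which fell, and that of Prpf39, which rose, are shown because they hold the same hexamer, in capitals, and were called in opposite directions. That of Snrpa is at chr7:27196222-27196521 on the minus strand and that of Prpf39 at chr12:65036084-65036383 on the plus strand of GRCm38.p6.
Snrpa: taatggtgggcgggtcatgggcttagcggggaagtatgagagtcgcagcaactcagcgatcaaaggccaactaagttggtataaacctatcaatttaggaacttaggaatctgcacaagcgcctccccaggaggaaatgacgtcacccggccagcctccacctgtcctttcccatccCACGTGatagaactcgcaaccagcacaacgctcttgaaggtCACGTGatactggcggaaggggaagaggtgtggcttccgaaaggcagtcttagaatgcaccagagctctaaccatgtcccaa
Prpf39: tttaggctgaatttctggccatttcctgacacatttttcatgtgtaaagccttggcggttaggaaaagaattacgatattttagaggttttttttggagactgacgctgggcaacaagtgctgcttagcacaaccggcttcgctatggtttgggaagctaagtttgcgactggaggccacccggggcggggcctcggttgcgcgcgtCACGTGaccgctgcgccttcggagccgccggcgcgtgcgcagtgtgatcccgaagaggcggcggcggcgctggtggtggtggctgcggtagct
Snrpa holds the hexamer at 2 places in this window and at 1 in a further window, and Prpf39 at 1. A window without it says nothing about binding elsewhere.

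Cell type markers, taken from 6 lists, differed in their counts from list to list. Among all 18543 tested entries 5.72% rose and 5.61% fell, and 40.6% of folds were below 1. The median log2 fold of all tested entries with a finite fold was 0.17. Of 12 tested macrophage markers 3 rose and 0 fell, with a median log2 fold of 1.90 and all 12 folds above 1, and at an unadjusted p under 0.05, 8 were higher and 0 lower in the authors' comparison. Of 6 neutrophil markers 3 rose and of 8 fibroblast markers 2, with medians of 4.34, over the 5 finite folds, and 2.10, and 0 fell in either list. Of 8 B lineage markers 2 rose, Ebf1 (1.61) and Blnk (1.04) in the authors' deposited table, and 0 fell, with a median of 0.49. At an unadjusted p under 0.05, 2 of these were higher and 1 lower by the authors' DESeq, Ms4a1 at -4.12 (adjusted p = 0.183) in that table. Of the 8 folds 3 were below 1, those of Ms4a1, Cd22 and Cd79a. Of 5 endothelial markers 1 fell, Eng (-1.04), and 0 rose, with a median of 0.89 in the authors' deposited table. The other 4 folds were above 1, and at an unadjusted p under 0.05, 1 marker was higher and 1 lower in the authors' comparison. Of 4 tested T cell markers 0 passed, with 1 higher at an unadjusted p under 0.05 by the authors' DESeq. The labels do not name the lineage of the injected cells. Levels per group are not in the table, so the part of cell composition in the falls was not tested.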

How the data were processed

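RNA from 3 DOX and 3 no DOX tumour samples was sequenced after ribosomal RNA depletion, per the labels' protocols. RSEM and DESeq are the tools, and mm9 the mouse build, that stand in the submitters' processing notes, without versions. For the tested entries the deposited table holds a linear fold ratio and, per the file headers, an unadjusted and an adjusted p-value from the authors, with no value per sample. Depth per sample is unknown, and so is the precision it gives. The planned test on counts therefore could not be run.

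Log2 folds were computed here from that ratio. Of 29209 entries 18543 were tested, and 15784 of these have a finite fold. A Benjamini-Hochberg adjustment repeated over the 18543 differed from the authors' adjusted p by at most 2.09e-06. Entries were matched to RefSeq symbols (GRCm38.p6) by symbol, accession or unique synonym, 55, 4 and 28 of the 88 members, and 1 had no match. Coordinates are of GRCm38.p6 and not of the authors' mm9. Transcript features came from GENCODE M21. Near-identical copies were sought with BLAST+ 2.17.0 (coding sequence, at least 95% identity over at least 50% of its length).

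Members, classes and lists were chosen with earlier results of these data known. The genes named are the called members, the remaining members with their values, and up to 4 called genes per list and direction. Ppie, Raver1, Rbm6, Rbm39, Smn1, Sf3b6, Ptbp3, the kinases that did not pass and the named cell type markers fall outside this rule. They were chosen after their values were seen. The values of 1 member are not reported here. Python 3.11.15, pandas 2.3.3, scipy 1.17.1 and matplotlib 3.10.9 were used. The adjustment and the counting were tested on simulated data. Other thresholds, adjustments and entry rules were tried as alternatives.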

Additional observations from a re-analysis of the deposited data

How the results depend on the processing

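The count of 30 called members stayed within 1.5 times at an adjusted p under 0.01 (1 higher, 19 lower) or under 0.1 (4 and 32), with at least 2-fold change, with finite folds only, with 1 entry per gene, with the adjustment repeated over protein-coding matches, and with the rule applied to current symbols. A Bonferroni adjustment over all tested entries, stricter by construction, left 1 member, Prpf39, which is of the SF3, U2AF and PRPF class (1 left), and 0 of the core class and 0 of the SR and hnRNP class. At an adjusted p under 0.01, 4 SR and hnRNP genes and 7 of SF3, U2AF and PRPF were left, beside 9 core genes. With the rule applied to current symbols 5 members were higher and 28 lower. In the core class 1 was then higher, Snrnp48, and 12 lower. The median log2 fold was then -1.17 in the core class and -0.84 in the SF3, U2AF and PRPF class. With 1 entry per gene the median of the SF3, U2AF and PRPF class was -0.91.

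Leaving out members with a near-identical copy, an alternative chosen after seeing the data, left 6 called core genes, by construction fewer, with a median of -0.63, and gave the SF3, U2AF and PRPF class a median of -0.83, so that this class and not the core class had the lowest median. No median changed sign. No paired analysis was possible because the table holds no values per sample, and for the same reason no replicate could be left out.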
